A study of Mus musculus with 12 samples.

Results

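Tcap encodes the titin cap protein, also called telethonin, a small protein of striated muscle that binds the end of titin at the Z-disc, the structure that anchors thin filaments at the border of each sarcomere. It is a gene of heart and skeletal muscle, and the smooth muscle of the vessel wall has no sarcomeres. In mouse heart its transcript is known to cycle over the day, and the clock activators CLOCK and BMAL1 (the product of Arntl) have been reported to act on its promoter. It was identified by its symbol in the platform annotation, which gave it 1 probe set that names no other gene, and it was 1 of 22180 genes measured. Tcap (probe set 17255987) was chosen by its measured difference between the CM-695 and vehicle mice, so its own levels and difference are given as a description, without a test.

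The tissue was aortic vessel, taken from 12 females of the outbred CD-1 mouse stock. The 6 mice of the CM-695 group received CM-695 intraperitoneally at 80 mg/kg, 2 h and again 1 h before sacrifice, and the 6 mice of the vehicle group received saline. CM-695 inhibits histone deacetylase 6 and phosphodiesterase 9. The series design records 1 vehicle injection against 2 of CM-695, and the time of day of collection is not given in the sources used here, so neither can be told apart from the drug. Every mouse was perfused with buffered saline before the vessel was taken.

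One array was run per mouse and the values are on the log2 scale after RMA, so 1 unit is a doubling and a value near the array medians of 4.69 to 4.74 does not separate weak expression from none. Correlations between arrays over all 41345 probe sets lay between 0.957 and 0.977. Checked against the tissue label, the smooth muscle genes Acta2 and Myh11 were bright (12.70 ± 0.56 in CM-695 and 12.86 ± 0.33 in vehicle mice for Acta2, SD, n = 6 each). The samples also held brown fat and heart muscle transcripts: Ucp1, the uncoupling protein of brown fat, measured 12.55 ± 0.47 and 12.61 ± 0.23, and cardiac actin Actc1 9.25 ± 1.22 and 10.85 ± 0.68, in CM-695 and vehicle mice in that order (SD, n = 6 each).

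Tcap was lower in every CM-695 mouse than in any vehicle mouse. It measured 5.76, 6.59, 6.75, 6.33, 6.59 and 6.68 in CM-695 mice 1 to 6, against 8.47, 8.73, 8.19, 8.53, 8.95 and 8.27 in vehicle mice 1 to 6. The highest CM-695 mouse, mouse 3, lay 1.44 log2 below the lowest vehicle mouse, also mouse 3. Within the groups the spread was small beside that gap: the means were 6.45 ± 0.37 in CM-695 and 8.52 ± 0.28 in vehicle mice (SD, n = 6 each), a difference of -2.07 log2 (limma SE 0.18). CM-695 mouse 1 stood lowest; without it the difference was -1.93. Only 3 of the 22180 genes had a more negative difference by size alone: Mfsd2a, a lysophospholipid transporter (-2.75, SE 0.39), the clock output gene Dbp (-2.68, SE 0.16) and Sln, the sarcolipin gene of heart and skeletal muscle (-2.16, SE 0.69). These 3 were singled out after their values were seen.

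**Figure D1:**
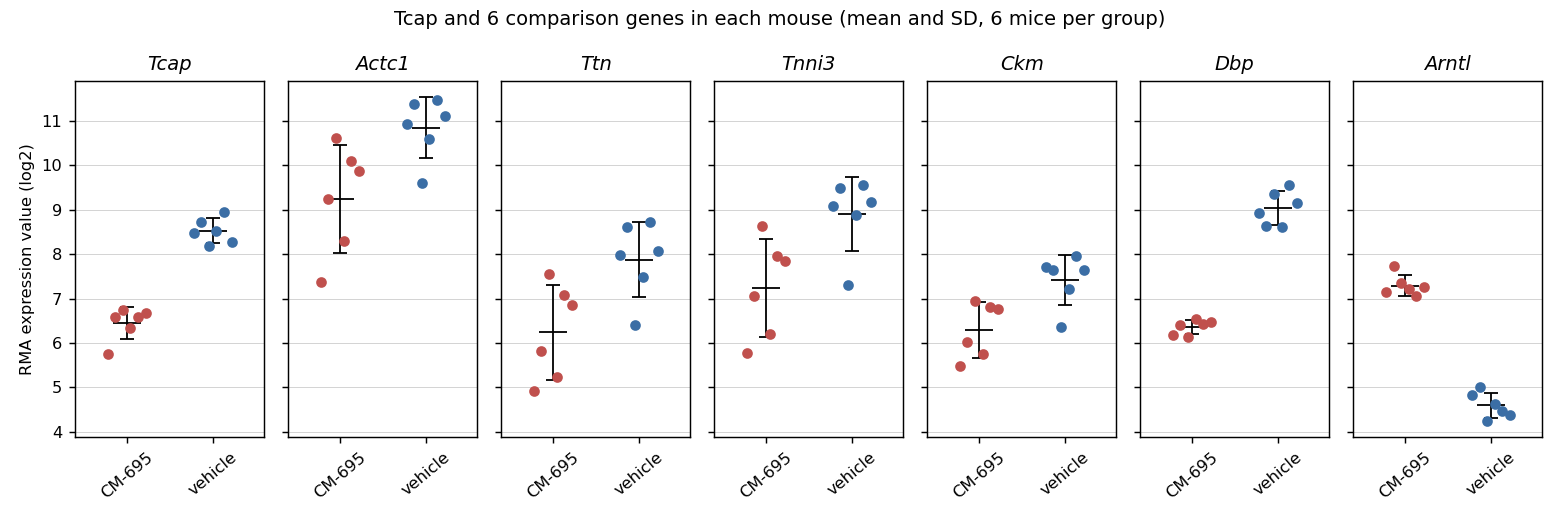
RMA expression values (log2, vertical axis) of Tcap, 4 muscle genes (Actc1, Ttn, Tnni3, Ckm) and 2 clock genes (Dbp, Arntl) in each mouse, CM-695 mice in red and vehicle mice in blue, with the mean and SD of 6 mice per group. The groups lie apart for Tcap, Dbp and Arntl and overlap for the 4 muscle genes.

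The genes set beside Tcap fell into those of the sarcomere and those of the clock. Actc1 encodes cardiac actin of the thin filament, Ttn the spring protein titin that Tcap binds, Tnni3 the inhibitory troponin of heart muscle, and Ckm the muscle creatine kinase. Dbp encodes an output transcription factor of the clock that CLOCK and BMAL1 activate directly. Sequences upstream of these genes were taken from a RefSeq promoter table (build GRCm38.p6; 250 bases before to 50 after the gene start), which matched 6 of the 7 genes, Actc1, Ttn, Tnni3, Ckm, Dbp and Arntl, the other one being Tcap. The windows of Actc1 and Dbp are shown as the muscle and the clock gene that Tcap is followed against below, at chr2:114052826-114053125 (minus strand) and chr7:45704997-45705296 (plus strand). Capitals mark the CArG element of serum response factor in Actc1 and the CANNTG E-box in Dbp.
Actc1: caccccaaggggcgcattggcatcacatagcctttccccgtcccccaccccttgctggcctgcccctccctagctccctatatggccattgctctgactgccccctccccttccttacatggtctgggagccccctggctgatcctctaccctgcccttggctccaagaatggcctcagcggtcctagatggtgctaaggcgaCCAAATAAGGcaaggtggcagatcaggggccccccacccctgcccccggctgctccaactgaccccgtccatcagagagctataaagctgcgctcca
Dbp: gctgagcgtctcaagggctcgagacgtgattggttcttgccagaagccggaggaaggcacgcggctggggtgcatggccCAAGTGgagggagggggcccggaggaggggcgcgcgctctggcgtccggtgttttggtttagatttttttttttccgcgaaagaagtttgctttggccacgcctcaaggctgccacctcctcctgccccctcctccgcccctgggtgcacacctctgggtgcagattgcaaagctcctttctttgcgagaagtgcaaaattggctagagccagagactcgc
The Actc1 element CCAAATAAGG began 47 bases before the gene start, and 1.63% of 32851 promoters of this length held a CArG element on either strand. The Dbp site CAAGTG began 171 bases before the start; CANNTG, which also covers CACGTG and CAGCTG, was found in 72.3% of promoters and in the windows of 5 of the 6 genes, Arntl being the exception. Of the other motifs searched on both strands, Ttn held a MEF2 element (3.19% of promoters), Ckm held CAGCTG (16.3%), and 1 of the 2 Arntl windows held AGGTCA (16.3%). CACGTG (7.15%), TTANGTAA (2.32%), TGACGTCA (1.79%) and the palindromic glucocorticoid response element (0.475%) were in none of these windows.

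The 4 sarcomere genes were lower on average after CM-695, with wide and overlapping groups. Actc1 ranged from 7.38 over a median of 9.56 to 10.60 in CM-695 mice, against 9.61, 11.02 and 11.48 in vehicle mice, a difference of -1.60 (SE 0.50, limma adjusted p = 0.325 over all probe sets). Ttn ranged from 4.93 over 6.34 to 7.55 in CM-695 mice, against 6.40, 8.03 and 8.71 in vehicle mice (-1.63, SE 0.49, limma adjusted p = 0.296). Tnni3 ranged from 5.78 over 7.45 to 8.63 in CM-695 mice, against 7.30, 9.12 and 9.57 in vehicle mice (-1.67, SE 0.49, limma adjusted p = 0.287). For each of these 3 genes 3 of 6 CM-695 mice lay below the vehicle range. Ckm differed by -1.12 (SE 0.31, limma adjusted p = 0.237), with 3 of 6 CM-695 mice below the vehicle range. None of the 4 differences passed the threshold of 0.05.

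The clock genes separated the groups as Tcap did. Dbp ranged from 6.14 over 6.41 to 6.55 in CM-695 mice, against 8.62, 9.05 and 9.55 in vehicle mice, and fell (limma adjusted p = 5.15e-06). Arntl ranged from 7.05 over 7.24 to 7.72 in CM-695 mice, against 4.25, 4.55 and 4.999 in vehicle mice, and rose by 2.69 (SE 0.15, limma adjusted p = 2.80e-06). The SD of Tcap within groups, 0.37 in CM-695 and 0.28 in vehicle mice, was nearer to that of Dbp (0.16 and 0.38) and Arntl (0.24 and 0.28) than to that of Actc1 (1.22 and 0.68). Dbp, Tcap and Arntl were thus tight within each group, and Actc1 was not. Among other muscle genes, the SD was 1.07 and 0.85 for Ttn and 1.10 and 0.83 for Tnni3, in the same order. It was smaller for Ckm (0.63 and 0.57) and for Hrc, a heart muscle gene named below (0.32 and 0.42). A small spread therefore does not set Tcap apart from all muscle genes.

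Within the CM-695 group, by contrast, Tcap followed the sarcomere genes from mouse to mouse. Over the 6 CM-695 mice its Pearson r was 0.929 with Actc1, 0.824 with Ttn and 0.871 with Tnni3 (two-sided exact permutation p = 0.00556 for each, adjusted p = 0.0208 over 12 tests). With Ckm r was 0.839 (exact permutation p = 0.00694, adjusted p = 0.0208). CM-695 mice 1 and 4 were lowest for all of these genes and for Tcap. The Spearman rho was 0.829 for each of the 4 genes and did not pass (exact permutation p = 0.0583, adjusted p = 0.175), so the relation passed on the values and not on their ranks. Leaving out the 2 mice farthest from the median, r over the other 4 was 0.704 for Actc1, 0.801 for Ttn, 0.767 for Tnni3 and 0.601 for Ckm.

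In the vehicle group the same correlations were positive and did not pass. The Pearson r was 0.740 with Actc1, 0.779 with Ttn, 0.731 with Tnni3 and 0.687 with Ckm, with exact permutation p from 0.0681 to 0.115 and adjusted p from 0.138 to 0.173. The Spearman rho was 0.771 for Actc1, Ttn and Tnni3 (exact permutation p = 0.103, adjusted p = 0.176) and 0.714 for Ckm (exact permutation p = 0.136, adjusted p = 0.204). Vehicle mouse 3 was lowest for Tcap and for all 4 genes; over the 4 mice left without the 2 farthest, r was 0.2796, 0.413, 0.480 and 0.769 for Actc1, Ttn, Tnni3 and Ckm. The difference in r between the groups was not tested. The 4 genes moved almost as one, with r between 0.968 and 0.992 for their 6 pairs in CM-695 mice and between 0.960 and 0.995 in vehicle mice, so these are not separate pieces of evidence.

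No such relation to the clock genes was detected. With Dbp, r was 0.254 in CM-695 mice (exact permutation p = 0.704, adjusted p = 0.768; rho -0.257, exact permutation p = 0.658, adjusted p = 0.718) and 0.00659 in vehicle mice (exact permutation p = 0.985, adjusted p = 0.985; rho -0.0857, exact permutation p = 0.919, adjusted p = 0.919). Single mice set these values: with 1 mouse left out r ran from -0.758 to 0.744 in CM-695 mice and from -0.936 to 0.312 in vehicle mice, and without the 2 farthest mice it was -0.762 and -0.993 over 4 mice each. With Arntl, r was 0.342 in CM-695 mice (exact permutation p = 0.429, adjusted p = 0.515; rho 0.657, exact permutation p = 0.175, adjusted p = 0.233) and 0.464 in vehicle mice (exact permutation p = 0.356, adjusted p = 0.474; rho 0.6, exact permutation p = 0.242, adjusted p = 0.290). Without the 2 farthest mice r with Arntl was 0.917 in CM-695 and -0.053 in vehicle mice. With 6 mice a group, the smallest exact p that can be reached is 0.00278.

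**Figure D2:**
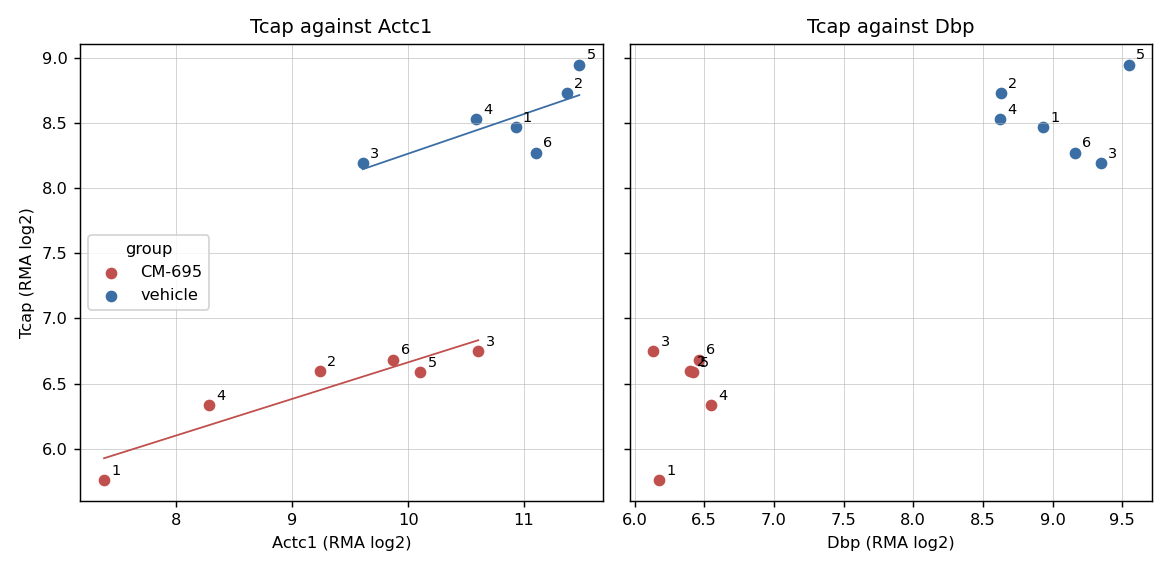
Tcap (vertical axis, RMA log2) against Actc1 (left) and Dbp (right) in each mouse, CM-695 mice in red and vehicle mice in blue, numbered by mouse, with a least-squares line per group for Actc1. On the left each group forms its own rising line, the CM-695 line below the vehicle line; on the right the groups form separate clouds with no common line inside them.

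Tcap and Actc1 values can be set side by side in mice of similar Actc1 level; since no CM-695 mouse reached a vehicle mouse in Tcap, every such pair differs in the same direction. CM-695 mouse 3 had an Actc1 value of 10.60 and vehicle mouse 4 one of 10.59, and their Tcap values were 6.75 and 8.53. CM-695 mouse 6 had 9.87 and vehicle mouse 3 had 9.61 for Actc1, and 6.68 and 8.19 for Tcap. Inside the groups Tcap changed by 0.29 log2 per log2 of Actc1 (SE 0.06, common slope by least squares, 9 residual degrees of freedom), and by 0.27 per log2 of Ttn (SE 0.07), 0.27 of Tnni3 (SE 0.06) and 0.42 of Ckm (SE 0.12). At equal levels of these genes the Tcap difference between the groups was -1.61 with Actc1 (SE 0.13), -1.62 with Ttn (SE 0.16), -1.61 with Tnni3 (SE 0.16) and -1.60 with Ckm (SE 0.18), against -2.07 without them. The muscle genes themselves were lower in CM-695 mice, so such a fit divides what the groups and these genes share. In this bulk tissue, fewer muscle cells in a sample and less RNA of a gene per cell cannot be told apart.

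A list of 28 heart muscle genes was lower in CM-695 mice by its median, with wide groups. The median difference of the list was -1.24 log2, against 0.02 over all genes, with 26 of 28 below 0. By limma 0 of 28 passed over all probe sets, where 0.144% of all genes passed in this direction, and 21 had an unadjusted p under 0.05, all lower, against 4.14% of all genes that reached it in this direction. Every CM-695 mouse lay below every vehicle mouse in 0 of the 28 and in 0.636% of all genes, so this count is near the share over all genes. The mean of the list per mouse ran from 5.73 to 7.55 in CM-695 and from 6.77 to 8.34 in vehicle mice. The smallest p belonged to Ckmt2, the mitochondrial creatine kinase of striated muscle, with a difference of -1.75 (SE 0.41, limma adjusted p = 0.151). Hrc, a calcium-binding protein gene of the sarcoplasmic reticulum, differed by -0.81 (SE 0.20, limma adjusted p = 0.165) and Mb, myoglobin, by -1.54 (SE 0.38, limma adjusted p = 0.171). Myl7, the atrial light chain, differed by -1.89 (SE 0.50, limma adjusted p = 0.212) and Myh6, the alpha heavy chain of the heart, by -1.71 (SE 0.56, limma adjusted p = 0.351). The ventricular light chain Myl2 stayed near the array median, at 4.55 ± 0.16 in CM-695 and 4.53 ± 0.09 in vehicle mice (SD, n = 6 each), as did Myh7, the beta heavy chain, at 4.53 ± 0.12 and 4.59 ± 0.17, and the natriuretic peptide gene Nppb, at 4.48 ± 0.04 and 4.54 ± 0.22.

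Co-variation inside the groups was compared by subtracting the group mean from each value and taking Pearson's r with Tcap over the 12 mice, as a description without a test; points within a tissue sample share its cell content. Heart muscle genes had a median r of 0.762, with 21 of 28 above 0.5, against a median of -0.01 over all genes and 4.02% of them above 0.5. Skeletal muscle genes, 24 measured, had a median of 0.241, with 4 above 0.5. The markers Acta1, Tnnt3 and Mylpf, chosen after their values were seen, gave these levels: skeletal actin Acta1 measured 5.93 ± 0.13 in CM-695 and 6.01 ± 0.30 in vehicle mice, fast troponin Tnnt3 5.46 ± 0.12 and 5.43 ± 0.11, and the fast light chain Mylpf 3.36 ± 0.14 and 3.38 ± 0.40 (SD, n = 6 each). These 3 do not stand for the whole list, in which 13 of 24 genes had a mean level above the median of all probe sets. Differences in the list ran from -0.95 to 0.47 log2, with 11 genes below 0 and 13 above. The median difference of this list was 0.01 log2. By limma 0 of 24 were called, a count near the 0.167% of all genes called. At an unadjusted p under 0.05 stood 6 of the 24, against 9.1% of all genes, 4 of them lower and 2 higher. The lower ones were the muscle enolase gene Eno3 (-0.88, SE 0.28), Smpx (-0.95, SE 0.32), Xirp2 (-0.93, SE 0.35) and the muscle phosphoglycerate mutase gene Pgam2 (-0.66, SE 0.28). Their group-centred r with Tcap was 0.621, 0.752, 0.497 and 0.535 in that order, beside the list median of 0.241. Whether these transcripts came from skeletal or heart muscle was not tested. The higher ones were parvalbumin, Pvalb (0.44, SE 0.14), and Myh1, a fast heavy chain (0.47, SE 0.21), both below the array medians in each group.

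The median within-group r was 0.349 for the 24 measured titin and Z-disc partner genes, with 8 above 0.5. It was 0.160 for 19 clock genes, 0.0850 for 10 clock-regulated genes of heart and muscle, 0.0718 for 12 smooth muscle genes, -0.171 for 8 white fat genes and -0.132 for 8 brown fat genes. The smooth muscle list held 1 gene above 0.5, desmin (Des, r 0.799), an intermediate filament gene that heart muscle also uses. None of the smooth muscle or fat genes passed in limma, a count near the 0.167% of all genes that passed. An unadjusted p under 0.05 was reached by 0 of 12 smooth muscle, 2 of 8 white fat and 1 of 8 brown fat genes. Over all genes 9.1% reached it. Leaving out CM-695 mouse 1, the mouse with the lowest Tcap, changed the medians to 0.725 for heart, 0.0995 for skeletal muscle and 0.0588 for clock genes; those of smooth muscle and white fat genes changed sign, to -0.172 and 0.0715. Without that mouse r was above 0.5 for 23 of 28 heart genes and 5.36% of all genes.

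**Figure D3:**
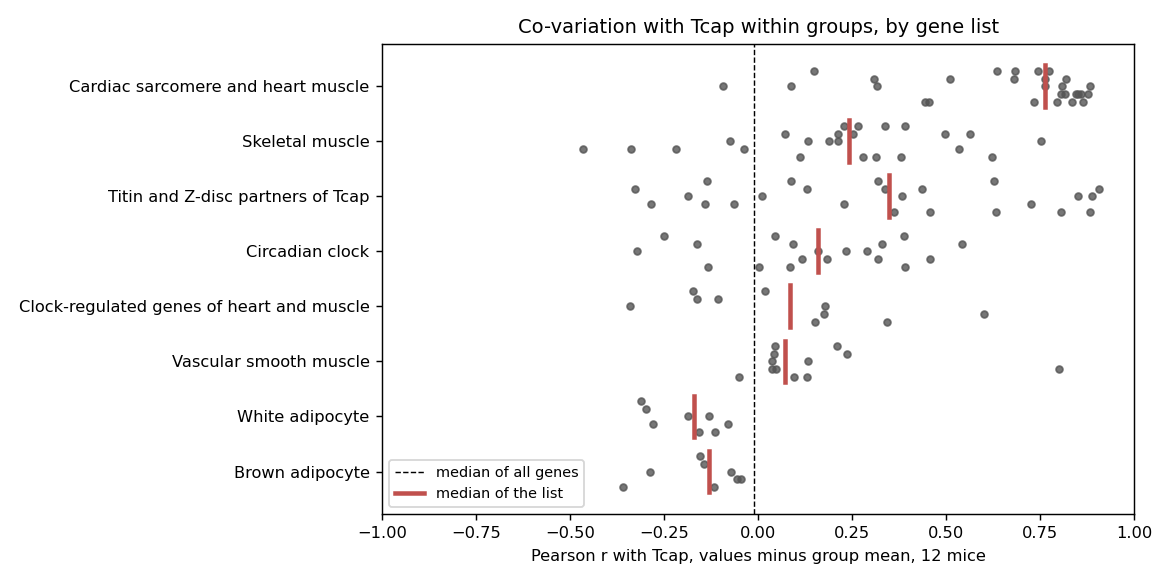
Pearson r with Tcap after subtracting group means (horizontal axis, 12 mice) for each gene of 8 lists, 1 point per gene, with the median of each list in red and the median of all genes as a dashed line. Heart muscle genes have a median of 0.762, and the medians of clock, smooth muscle and fat genes lie between -0.171 and 0.160.

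Genes of proteins listed as partners of Tcap, of titin or of the Z-disc ran from -1.63 to 0.25 in their differences, with a median of -0.14. Ttn and Csrp3, the muscle LIM protein, belong to both this list and the heart list, as do Actn2 and Myom1, and Actn3 and Myot are also on the skeletal list. Of 24 measured partner genes, 0 passed in limma, against 0.167% of all genes, and 9 had an unadjusted p under 0.05, against 9.1% of all genes. Of these 9, 8 were lower. Csrp3 differed by -1.63 (SE 0.43, limma adjusted p = 0.213), Actn2, the alpha-actinin of the Z-disc, by -1.35 (SE 0.46, limma adjusted p = 0.368), and Nebl, nebulette, by -0.82 (SE 0.19, limma adjusted p = 0.149). Ankrd1, a stress-responsive ankyrin repeat gene of heart muscle, differed by -1.14 (SE 0.50, limma adjusted p = 0.521), and the Z-disc PDZ protein gene Ldb3 by -0.69 (SE 0.21, limma adjusted p = 0.323). The ubiquitin ligase gene Trim63 differed by -0.21 (SE 0.14) and Myoz1, the skeletal member of the calsarcin family, by -0.02 (SE 0.10).

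Myoz2, the cardiac calsarcin, was the 1 partner gene of 24 in which the groups did not overlap; over all genes every CM-695 mouse lay below every vehicle mouse in 0.636%. It measured 4.97, 7.17, 7.16, 6.20, 6.62 and 6.94 in CM-695 mice 1 to 6, against 7.67, 8.34, 7.23, 8.19, 8.16 and 7.98 in vehicle mice 1 to 6. CM-695 mouse 2 and vehicle mouse 3 nearly met. The difference was -1.42 (SE 0.34, limma adjusted p = 0.153). Its r with Tcap was 0.976 in CM-695 and 0.715 in vehicle mice, as a description.

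**Figure D4:**
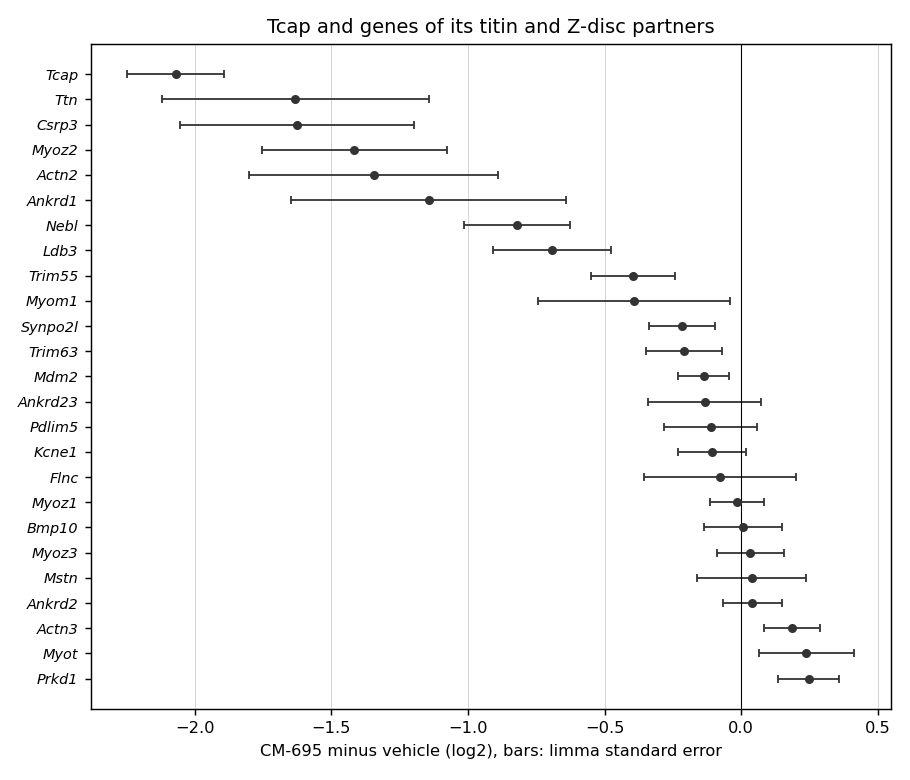
Difference CM-695 minus vehicle (log2, horizontal axis) with the limma standard error for Tcap and 24 genes of titin and Z-disc partners, in order of size. Tcap has the lowest value, with a standard error of 0.18. Partner genes have both shorter error bars, as for Trim63 (0.14) and Myoz1 (0.10), and longer ones, from 0.43 to 0.50 for Ttn, Csrp3, Actn2 and Ankrd1.

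Across all 12 mice, the genes whose profile was most like that of Tcap were mostly clock genes. Likeness was the root mean square difference between profiles over 12 mice after subtracting each gene's own mean, over 12977 genes brighter than the median probe set; a smaller value is more alike. The nearest were Tef (0.385 log2), a clock output factor related to Dbp, and the clock repressor gene Ciart (0.389). Then came the period gene Per3 (0.430), the clock repressor gene Bhlhe41 (0.436) and the deubiquitinase gene Usp2 (0.439), a clock output. Myoz2 (0.491), Dbp (0.492), the nuclear receptor gene Nr4a3 (0.502), Nr1d2, which encodes REV-ERB beta (0.508), and the metallothionein gene Mt2 (0.525) followed. These 10 include 7 clock genes and 1 sarcomere gene. In all 10 every CM-695 mouse lay below every vehicle mouse, against 0.636% of all genes. A profile near that of Tcap, whose groups lay 1.44 log2 apart, largely brings this with it. The measure follows the group difference by which Tcap was chosen and is no evidence of shared control.

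Inside the groups the 7 clock genes did not track Tcap closely. Their group-centred r was 0.319 for Tef, 0.389 for Ciart, -0.251 for Per3, 0.182 for Bhlhe41, 0.233 for Usp2, 0.0836 for Dbp and 0.0916 for Nr1d2. Of all 19 measured clock genes, 8 fell and 2 rose in limma over all probe sets, where 0.144% of genes fell and 0.0225% rose. In 8 of the 19 every CM-695 mouse lay below every vehicle mouse, and in 4 every CM-695 mouse lay above, against 0.636% and 0.442% of all genes. Beside Dbp and Arntl, the genes that passed included Tef with a difference of -1.59 (SE 0.12), Per3 with -1.86 (SE 0.14), Per1 with -0.99 (SE 0.13) and Npas2, a partner of BMAL1, with 2.24 (SE 0.24). The REV-ERB alpha gene Nr1d1 differed by -0.16 (SE 0.15, limma adjusted p = 0.787).

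Among 10 genes reported to follow the clock in heart or muscle, 1 fell, the cell cycle kinase gene Wee1 (-1.05, SE 0.14, limma adjusted p = 0.00767), against 0.144% of all genes. The transcription factor gene Klf15 differed by -0.72 (SE 0.16, limma adjusted p = 0.127), the potassium channel subunit gene Kcnip2 by -0.66 (SE 0.22, limma adjusted p = 0.365), and the nicotinamide salvage enzyme gene Nampt by -0.60 (SE 0.22, limma adjusted p = 0.408). The means of Kcnip2, 3.92 in CM-695 and 4.58 in vehicle mice, were below the array medians, where weak expression is not separated from none. The median of the 10 was -0.23 log2, and 4 had an unadjusted p under 0.05, all lower and Kcnip2 among them, against 4.14% of all genes.

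**Figure D5:**
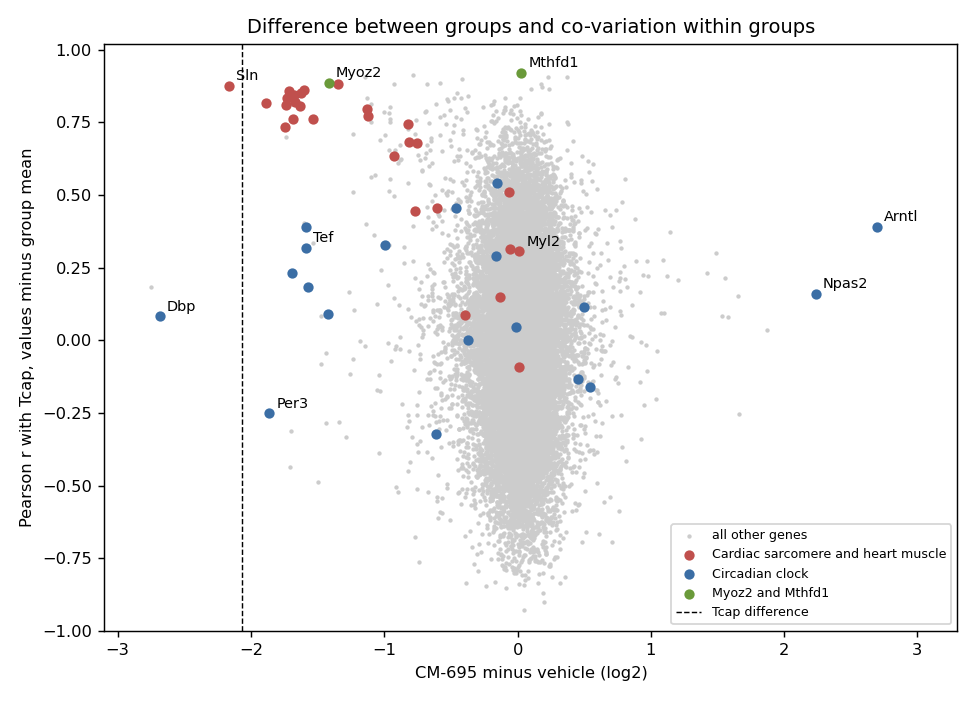
Each gene's difference CM-695 minus vehicle (log2, horizontal axis) against its group-centred Pearson r with Tcap (vertical axis). Heart muscle genes are in red, clock genes in blue, Myoz2 and Mthfd1 in green and all other genes in grey. The dashed line is the Tcap difference of -2.07. Heart muscle genes with differences below -1 all have r above 0.5, and the clock genes with differences below -1 lie at lower r.

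By group-centred r, the genes named here as most like Tcap inside the groups included 2 of the partner list, Ankrd1 and Myoz2. Genes of the heart list lay just below the last one named: r was 0.882 for Actn2, which is on both lists, 0.876 for Sln and 0.863 for Actc1. Mthfd1, a folate enzyme of one-carbon metabolism, had the highest r (0.921) with no detectable difference between the groups (0.03, SE 0.12, limma adjusted p = 0.967). Then came Tmod1, tropomodulin, which caps thin filaments (0.913), Ankrd1 (0.905), the muscle kelch protein gene Klhl31 (0.899), Myoz2 (0.887), Tmem38a, a channel of the sarcoplasmic reticulum (0.885), Lrrc2 (0.884) and the calcium pump gene Atp2a2 (0.883). Their differences between groups ran from -1.42 for Myoz2 to -0.41 for Klhl31 (SE 0.17), none past the threshold, with -0.78 (SE 0.22) for Tmod1, -0.93 (SE 0.29) for Lrrc2 and -0.68 (SE 0.17) for Atp2a2. At the other end stood Magix (-0.928) and the homeobox gene Pknox1 (-0.808), then Rbm45 (-0.800) and Wdr34 (-0.796). These 12 were picked as extremes of 12977 genes over 12 mice. CM-695 mouse 1 weighs on them: without it r was 0.822 for Mthfd1, 0.896 for Tmod1 and -0.844 for Magix.

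The genes next to Tcap in the genome had small differences that did not pass. In the RefSeq annotation of GRCm38.p6, Stard3, a cholesterol transfer protein gene, and Pnmt, the adrenaline synthesis gene, flank Tcap. Stard3 measured 5.52 ± 0.14 in CM-695 and 5.64 ± 0.12 in vehicle mice (SD, n = 6 each), a difference of -0.13 (SE 0.09, limma adjusted p = 0.723). Pnmt differed by -0.24 (SE 0.19, limma adjusted p = 0.736), Pgap3, which acts on lipid anchors of proteins, by -0.26 (SE 0.12, limma adjusted p = 0.521) and the receptor tyrosine kinase gene Erbb2 by 0.02 (SE 0.14, limma adjusted p = 0.976). On the other side, the non-coding gene 1700003D09Rik beyond Stard3 differed by 0.21 (SE 0.14, limma adjusted p = 0.681).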

How the data were processed

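RNA of aortic tissue was measured on 1 Affymetrix mouse gene array per mouse. The authors deposited log2 values made with RMA (background correction, normalization across arrays, probe summarization), per the submitters' processing notes; the software version is not given in the sources used here. Precision is set by having 6 mice in each group, and the values carry no detection calls. Of 41345 probe sets, the platform annotation gave 1 symbol for 23521, several for 1814 and none for 16010; a gene with several probe sets was represented by the one with the highest mean over 12 arrays. CM-695 minus vehicle was fitted with limma 3.58.1 in R 4.3.3 (lmFit, eBayes, two-sided, Benjamini-Hochberg over all probe sets, threshold 0.05), and 64 probe sets (0.155%) passed. The limma step was tested on simulated data with independent noise for each probe set, whereas the sarcomere genes here varied together. Within-group correlations with 6 genes were tested by exact permutation in Python 3.11.15, with Benjamini-Hochberg adjustment over the 12 Pearson and, apart, the 12 Spearman tests. Named genes were Tcap and the 6 comparison genes, list members past the threshold or otherwise up to 4 with the smallest p, any titin or Z-disc partner, the extremes of both likeness measures (predicted genes and small RNAs not named) and annotated neighbours; marker genes that check the tissue, and Myh6, Des, Nr1d1, Pgam2 and Myh1, were named outside this rule. The gene and the lists were chosen with earlier results of these data known. Some listed genes and 1 neighbour of Tcap are not analysed here.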

Additional observations from a re-analysis of the deposited data

Results flagged for a closer look

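Of 134 groups of 6 mice checked for the 67 genes given values in the text or figures, 8 held a mouse whose gap to the nearest other mouse exceeded Dixon's 95% critical value for its share of the group's range; chance flags about 1 in 20. CM-695 mouse 1, the mouse with the lowest Tcap, accounted for 3 of them. It measured 5.92 for Mthfd1, the other CM-695 mice 6.46 to 6.56, and it was highest for Magix at 5.16 (others 4.605 to 4.71) and for Pknox1 at 5.69 (others 5.47 to 5.54). These 3 genes were picked as extremes of r with Tcap, a ranking on which this mouse weighs. Their flags are thus no separate finding about it. Vehicle mouse 3, lowest for Tcap in its group, measured 7.30 for Tnni3 (others 8.87 to 9.57) and 6.19 for the muscle ankyrin repeat gene Ankrd23 (others 7.07 to 7.46). Vehicle mouse 2 measured 7.08 for Per3 (others 7.58 to 7.76). CM-695 mouse 2 measured 7.84 for Nampt (others 8.73 to 9.19). Vehicle mouse 5 measured 2.02 for Myh1 (others 2.72 to 3.06).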

How the results depend on the processing

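The Tcap difference of -2.07 kept its direction in 21 of 21 alternative fits. Tcap was chosen by this difference and its groups lay 1.44 log2 apart, so leaving out a mouse could not reverse it. The count is therefore no support for the difference. It was -1.58 with the heart muscle mean and -1.61 with Actc1 as a covariate (Actc1 was chosen after seeing the data), and ran from -2.14 to -1.93 with 1 mouse left out. In place of 64 probe sets, 116 passed without dim probe sets (fewer tested), 12 passed with the heart mean and 17 with Actc1 as a covariate, and 22 to 98 with 1 mouse left out. With the replicate number as a block 15 passed. Deviations of same-numbered mice correlated between -0.104 and 0.101 over all probe sets, so no broad likeness between them was seen. The sample titles give no meaning for the number, and a factor shared by few genes would not show here. Clock genes past the threshold numbered 6 with the heart mean as a covariate, and 10 in each leave-one-out fit. Of the clock-regulated genes, 0 passed with the heart mean or Actc1 as a covariate and 1 or 2 with 1 mouse left out. No heart, skeletal, Z-disc, smooth muscle or fat gene passed in any of these fits. Of the 12 within-group correlations, 4 passed by Pearson's r and 0 by Spearman's rho, where the correlation with Dbp changed sign (-0.257 in CM-695 and -0.0857 in vehicle mice); repeated quantile normalization also gave -0.0730 in vehicle mice. Without CM-695 mouse 1, an alternative added after seeing the data, the median within-group r was -0.172 for smooth muscle (0.0718 with it) and 0.0715 for white fat genes (-0.171 with it), so the sign of these small medians rests on that mouse. Of the 10 profiles nearest to Tcap, 6 were shared with a ranking by Pearson's r over all 12 mice. The cause of these changes was not tested beyond the fewer probe sets or mice. No second probe set named Tcap, so alternatives over probe sets were not run.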
